A study of Homo sapiens with 9 samples.

Results

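The genes described here carry sugar uptake, glycolysis, lactate handling and the pentose phosphate pathway, and they are 35 of the 26485 gene models counted. They were chosen by name from the enzymes, transporters and regulators of these steps, and all 35 were present in the count table of each of the 9 libraries. The libraries came from wild-type HAP1, an untreated, near-haploid human cell line that grows attached to the dish and derives from a chronic myeloid leukaemia line. Cells were sorted in numbers of 1, 10, 100 or 1000, their RNA was isolated with NAxtra magnetic nanoparticles, and libraries were made with the SMART-Seq Stranded Kit. There were 3 single-cell libraries (Single Cell Rep 1, Rep 2 and Rep 3, in which order their values are always given) and 2 each of 10, 100 and 1000 cells, all of the same genotype and culture medium. The labels call them biological replicates but name no separate cultures, so the p-values measure the spread among these libraries only.

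Glycolysis splits glucose into pyruvate in the cytosol and yields ATP and NADH, and dividing cells in culture turn much of the pyruvate into lactate, which they export. The pentose phosphate pathway leaves glycolysis at glucose phosphate and makes NADPH and the ribose of nucleotides. Most steps can be run by several isozymes, which are encoded by separate genes and differ in tissue pattern and control.

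The libraries held 42842970 to 61645865 counts, and levels are given as CPM, counts per 1000000 of TMM-scaled library size. The 35 genes together took 1.19%, 1.20% and 1.12% of the counts in the single cells, against 1.156% to 1.206% in the 6 libraries of more cells. Every gene had counts in every library, except TKTL1 at 0 counts in 100 Cell Rep 1. Markers of fibroblasts had a summed level of 7.59 to 15.3 CPM in single cells and 10.2 to 18.2 CPM in the other libraries. For blood cells the sum was at most 0.157 CPM in single cells and 1.38 CPM in the others, and for plasma cells, of whose markers SDC1 and XBP1 made up nearly all, it was 146 to 205 CPM in single cells and 189 to 211 CPM in the others. The fibroblast markers DCN, LUM and FAP, the blood markers GATA1, HBG1 and MPO and the plasma cell marker TNFRSF17 were at 0 in all 9 libraries.

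In single cells, LDHB, a lactate dehydrogenase subunit, and PFKFB3, which makes the activator of phosphofructokinase, were lower than in the 6 libraries of more cells, and no gene of the set was higher. These were 2 of the 35 genes (5.71%) called by edgeR's quasi-likelihood test over 15603 genes at an adjusted p under 0.05, against 6.67% of all genes (2.22% higher and 4.45% lower). GAPDH, PKM and ENO1, the abundant enzymes of lower glycolysis, did not pass and lay at 2028 ± 251, 2162 ± 100.4 and 1650.2 ± 46.8 CPM (SD, n = 3) in single cells, against 1892 ± 80.3, 2162 ± 107 and 1637 ± 51.1 CPM (SD, n = 6). At an unadjusted p under 0.05 there were 8 genes (22.9%, against 24.5% of all genes), of which ALDOA and TKTL1 were higher (5.71%, against 10.8%) and ENO3, HK1, LDHB, PFKFB3, RPE and TALDO1 lower (17.1%, against 13.8%). The median log2 fold change was 0.00 over the 35 genes and 0.01 over all genes, and 17 of the 35 were below 0 (48.6%, against 48.8% of all genes). The single cells lay wholly outside the other 6 libraries for 4 genes (11.4%, against 15.0% of all genes), above them for ALDOA (2.86%, against 4.98%) and below them for ENO3, LDHB and PFKFB3 (8.57%, against 10.0%).

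Both calls depended on which libraries entered. Without 100 Cell Rep 2, 1000 Cell Rep 1 or 1000 Cell Rep 2 no gene passed at all (smallest adjusted p 0.0569, 0.0540 and 0.0565 from edgeR). The same was so without both 10-cell libraries (0.0689). Of the 35 genes, LDHB alone passed without 10 Cell Rep 1, 10 Cell Rep 2 or 100 Cell Rep 1. In these fits 4.78%, 4.33% and 4.4% of all genes passed. Without Single Cell Rep 1, Rep 2 or Rep 3, 5, 8 and 7 of the 35 genes passed, LDHB and PFKFB3 among them each time, while 17.8%, 19.8% and 15% of all genes passed in these fits.

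**Figure D1:**
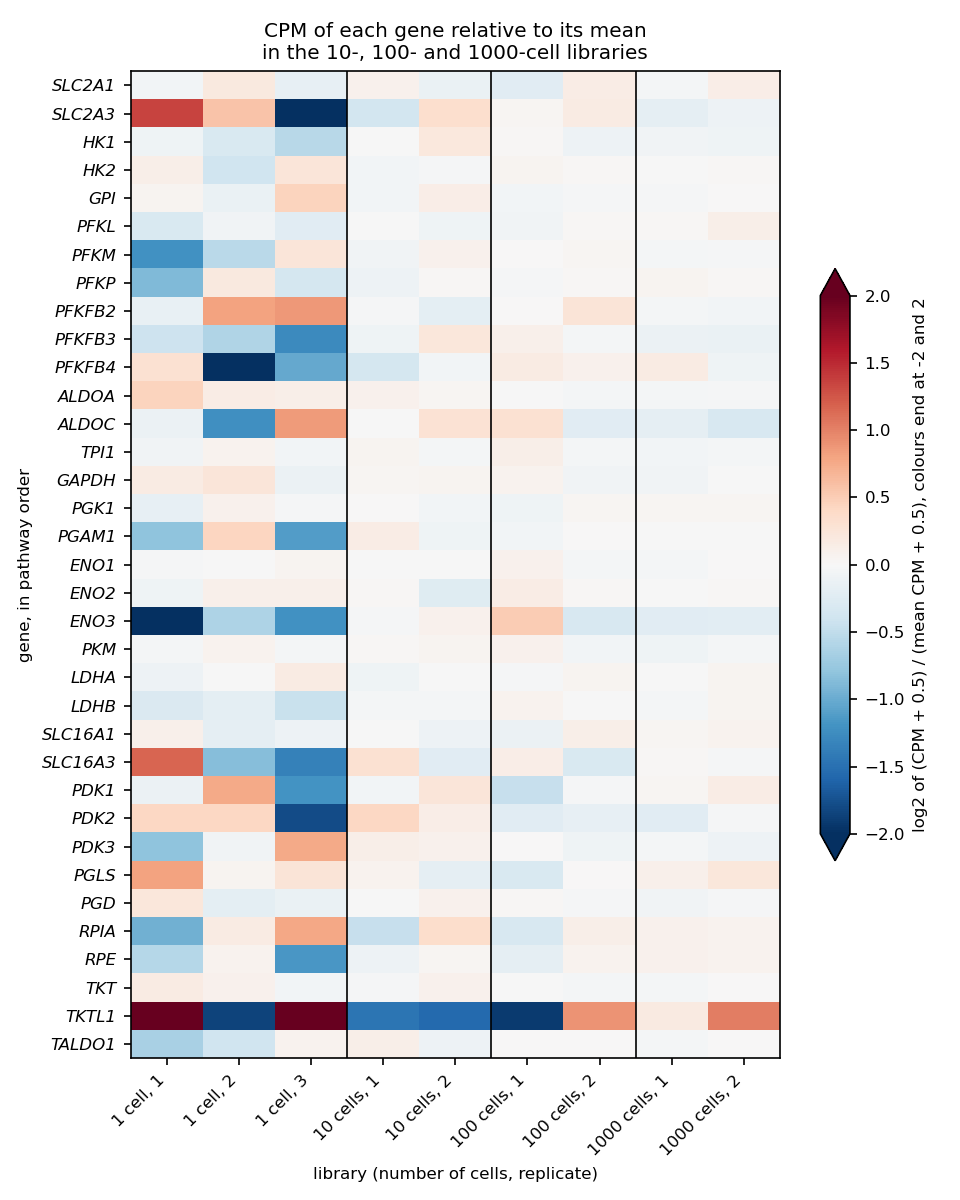
Level of each of the 35 genes (rows, in pathway order) in each library (columns, single cells at the left), as log2 of its CPM plus 0.5 over its mean in the 10-, 100- and 1000-cell libraries plus 0.5, with colours that end at -2 and 2. Apart from TKTL1, which also differs among the libraries of more cells, the strong colours stand in the single-cell columns, such as for SLC2A3, PFKFB4 and ENO3, while ENO1 and PKM are pale throughout.

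The heat map of the 35 genes shows that the single cells differed from the other libraries in different genes and in different directions. Glucose enters through transporters, of which SLC2A1 encodes GLUT1 and SLC2A3 GLUT3. SLC2A1 had 47.2, 56.1 and 43.8 CPM in the single cells, against 41.7 to 54.3 CPM with a median of 49.8 CPM in the other 6 libraries. SLC2A3 (hg38, chromosome 12, 7919228 to 7936296) had 16.3, 9.31 and 0.192 CPM in the single cells, against 4.60 to 7.86 CPM with a median of 5.94 CPM. SLC2A3 was thus above all 6 other libraries in Rep 1 and Rep 2 and below all of them in Rep 3, where it had 10 counts, and the ratio of highest to lowest cell was 85.3 (95% counting interval 46.2 to 179). Its log2 fold change was 0.50 (edgeR, standard error 0.79, adjusted p = 0.753), it was -0.36 without Rep 1 and 1.07 without Rep 3, and it has 3 annotated pseudogenes that could take some of its reads.

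In upper glycolysis, HK1 and HK2, the hexokinases that trap glucose as its phosphate, did not pass the test. HK1 had 134, 114 and 96.1 CPM in the single cells, against 132 to 164 CPM with a median of 138 CPM, and HK2 was at 140.3, 98.3 and 153 CPM, against 124 to 135 CPM with a median of 130.02 CPM. HK1 of Single Cell Rep 1 lay among the other libraries and the other single cells below them, whereas no single cell lay within the range of HK2. GPI, glucose phosphate isomerase, had 371, 327 and 485 CPM in the single cells, against 342 to 391 CPM with a median of 351 CPM.

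Phosphofructokinase commits sugar to glycolysis, and its liver, muscle and platelet subunits are encoded by PFKL, PFKM and PFKP. PFKM had 42.6, 68.1 and 117 CPM in the single cells, against 94.0 to 105 CPM with a median of 98.1 CPM. PFKP was at 99.4, 211 and 144 CPM, against 171 to 192 CPM with a median of 187 CPM. All 3 cells lay outside the other libraries for both genes, but they did not do so together, since Rep 2 was the highest for PFKP and Rep 3 for PFKM. PFKL varied less, at 63.4, 74.7 and 66.5 CPM in the single cells, against 73.5 to 84.3 CPM in the others.

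ALDOA and ALDOC encode aldolases, which split the sugar bisphosphate. ALDOA had 799, 650.3 and 639 CPM in the single cells, against 569.9 to 622 CPM with a median of 579.9 CPM. Every single cell was above every other library, although ALDOA passed DESeq2's Wald test and not edgeR's. ALDOC, the brain form, was at 6.90, 2.92 and 13.9 CPM, against 5.93 to 9.39 CPM, with Rep 2 below and Rep 3 above the range of the 6 libraries.

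PFKFB2, PFKFB3 and PFKFB4 encode enzymes with opposed kinase and phosphatase activities, which make and remove the sugar bisphosphate that activates phosphofructokinase. PFKFB3 (chromosome 10, 6144880 to 6235544) had 43.2, 37.7 and 23.7 CPM in the single cells, against 52.3 to 67.5 CPM with a median of 55.3 CPM in the other libraries. It was lower in every single cell than in every other library, with a log2 fold change of -0.73 (edgeR, standard error 0.19, adjusted p = 0.0411).
PFKFB4 had 6.68, 0.0980 and 2.36 CPM in the single cells, against 4.05 to 6.02 CPM with a median of 5.37 CPM. It was highest of all in Rep 1 and had 5 counts in Rep 2, which gave a log2 fold change of -0.80 that did not pass (edgeR, standard error 0.84, adjusted p = 0.617), and that was -2.11 without Rep 1 and -0.23 without Rep 2. PFKFB2, the heart form, was at 8.21, 16.4 and 17.1 CPM, against 7.98 to 11.1 CPM with a median of 8.98 CPM. Rep 2 and Rep 3 were above every other library and Rep 1 was not, with a log2 fold change of 0.60 (edgeR, standard error 0.29, adjusted p = 0.227), and without Rep 1, Rep 2 or Rep 3 it was 0.87, 0.46 and 0.42 (adjusted p = 0.0233, 0.277 and 0.311).

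Enzymes of lower glycolysis led the set in abundance. Per kilobase of exon and 1000000 counts (RPKM), the mean over the 9 libraries was 1024 for GAPDH, 679.7 for PKM, 505 for ENO1 and 491 for TPI1, the 4 highest of the set, and 173 for PGK1, which makes the first ATP. TPI1, triose phosphate isomerase, had 873, 961 and 879 CPM in the single cells, against 884 to 988 CPM with a median of 891 CPM, and PGK1 had 377, 451 and 416 CPM, against 399 to 435 CPM with a median of 429 CPM. Together with ENO1 and PKM, TPI1 had the smallest SD of log2 CPM among the single cells. ENO1, the main enolase, had 1619, 1627 and 1704 CPM in the single cells, against 1586 to 1728 CPM with a median of 1633 CPM. PKM, which encodes the pyruvate kinases of the muscle type, had 2105, 2278 and 2103 CPM in the single cells, against 2029.98 to 2305 CPM with a median of 2145 CPM. All single cells lay within the range of the other libraries for ENO1 and PKM, as they did for ENO2, the neuronal enolase (149 to 170.4 CPM in single cells and 135 to 176 CPM in the others). GAPDH, the dehydrogenase of this stretch, had 2109.6, 2228 and 1747 CPM in the single cells, against 1799 to 1985 CPM with a median of 1906 CPM, so that no single cell lay within that range.

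PGAM1, phosphoglycerate mutase, stood out among these enzymes. It had 62.5, 148 and 50.3 CPM in the single cells, against 103 to 121 CPM with a median of 109 CPM. Rep 2 was above and the other cells below all 6 libraries. ENO3, the muscle enolase, had 0.753, 3.82 and 2.38 CPM in the single cells, against 4.82 to 8.92 CPM with a median of 5.63 CPM. The groups did not overlap, and the log2 fold change of -1.40 did not pass edgeR's test (standard error 0.55, adjusted p = 0.140), though it passed DESeq2's (adjusted p = 0.0355) and edgeR's without Rep 2 (adjusted p = 0.0301). The log2 fold change was -0.99 without Rep 1, -1.97 without Rep 2 and -1.42 without Rep 3. Of the 113 annotated pseudogenes of the set, GAPDH has 62 and PGAM1 13, and since reads that map to several places were left out, the counts of both are uncertain and may be too low.

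Lactate dehydrogenase interconverts pyruvate and lactate, with LDHA encoding the muscle subunit and LDHB the heart subunit. A start of each gene is shown because LDHB passed the test and LDHA did not, each window running from 250 bases before to 50 bases after a RefSeq transcript start on GRCh38.p14. Capitals mark ACGTG, a core form of the hypoxia response element, read on either strand, and CACGTG, which holds it on both strands and therefore counts as a match on each. The window of LDHB is chr12:21657793-21658092 on the minus strand and that of LDHA chr11:18394313-18394612 on the plus strand.
LDHB: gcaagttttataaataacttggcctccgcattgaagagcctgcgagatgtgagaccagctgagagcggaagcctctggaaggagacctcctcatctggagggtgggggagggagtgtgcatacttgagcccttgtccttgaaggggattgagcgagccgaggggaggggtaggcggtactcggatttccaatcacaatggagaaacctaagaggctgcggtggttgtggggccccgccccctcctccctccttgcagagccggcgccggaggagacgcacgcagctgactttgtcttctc
LDHA: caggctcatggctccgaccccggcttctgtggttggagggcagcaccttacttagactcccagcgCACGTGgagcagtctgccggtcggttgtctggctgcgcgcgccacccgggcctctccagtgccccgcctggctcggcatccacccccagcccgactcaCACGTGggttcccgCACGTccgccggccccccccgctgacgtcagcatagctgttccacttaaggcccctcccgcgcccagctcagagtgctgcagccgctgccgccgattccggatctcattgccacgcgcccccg
The LDHA window holds 5 matches and 29 CG dinucleotides, and the LDHB window 0 matches and 14 CG dinucleotides. A second LDHA start in the RefSeq table (chr11:18396101-18396400, not printed) holds 0 matches and 31 CG dinucleotides. These matches describe the letters only.

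LDHB (chromosome 12, 21635341 to 21657855) had 645, 686 and 576 CPM in the single cells, against 762 to 823 CPM with a median of 773 CPM in the 6 libraries of more cells. Every single cell was below every other library, and LDHB fell by 0.31 on the log2 scale (edgeR, standard error 0.066, adjusted p = 0.0249). LDHA was at 604, 644 and 721 CPM, against 612 to 673 CPM with a median of 644 CPM, with Rep 1 just below and Rep 3 above the other libraries. LDHB has 3 and LDHA 6 annotated pseudogenes that could take some of their reads. SLC16A1, the lactate and pyruvate carrier MCT1, had 258.5, 211 and 224 CPM in the single cells, against 221 to 259.8 CPM in the others. SLC16A3, the carrier MCT4 of strongly glycolytic cells, was at 24.8, 5.73 and 3.91 CPM, against 8.66 to 13.4 CPM with a median of 10.8 CPM. SLC16A3 was above all other libraries in Rep 1 and below them in Rep 2 and Rep 3, the same order of cells as for SLC2A3.

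**Figure D2:**
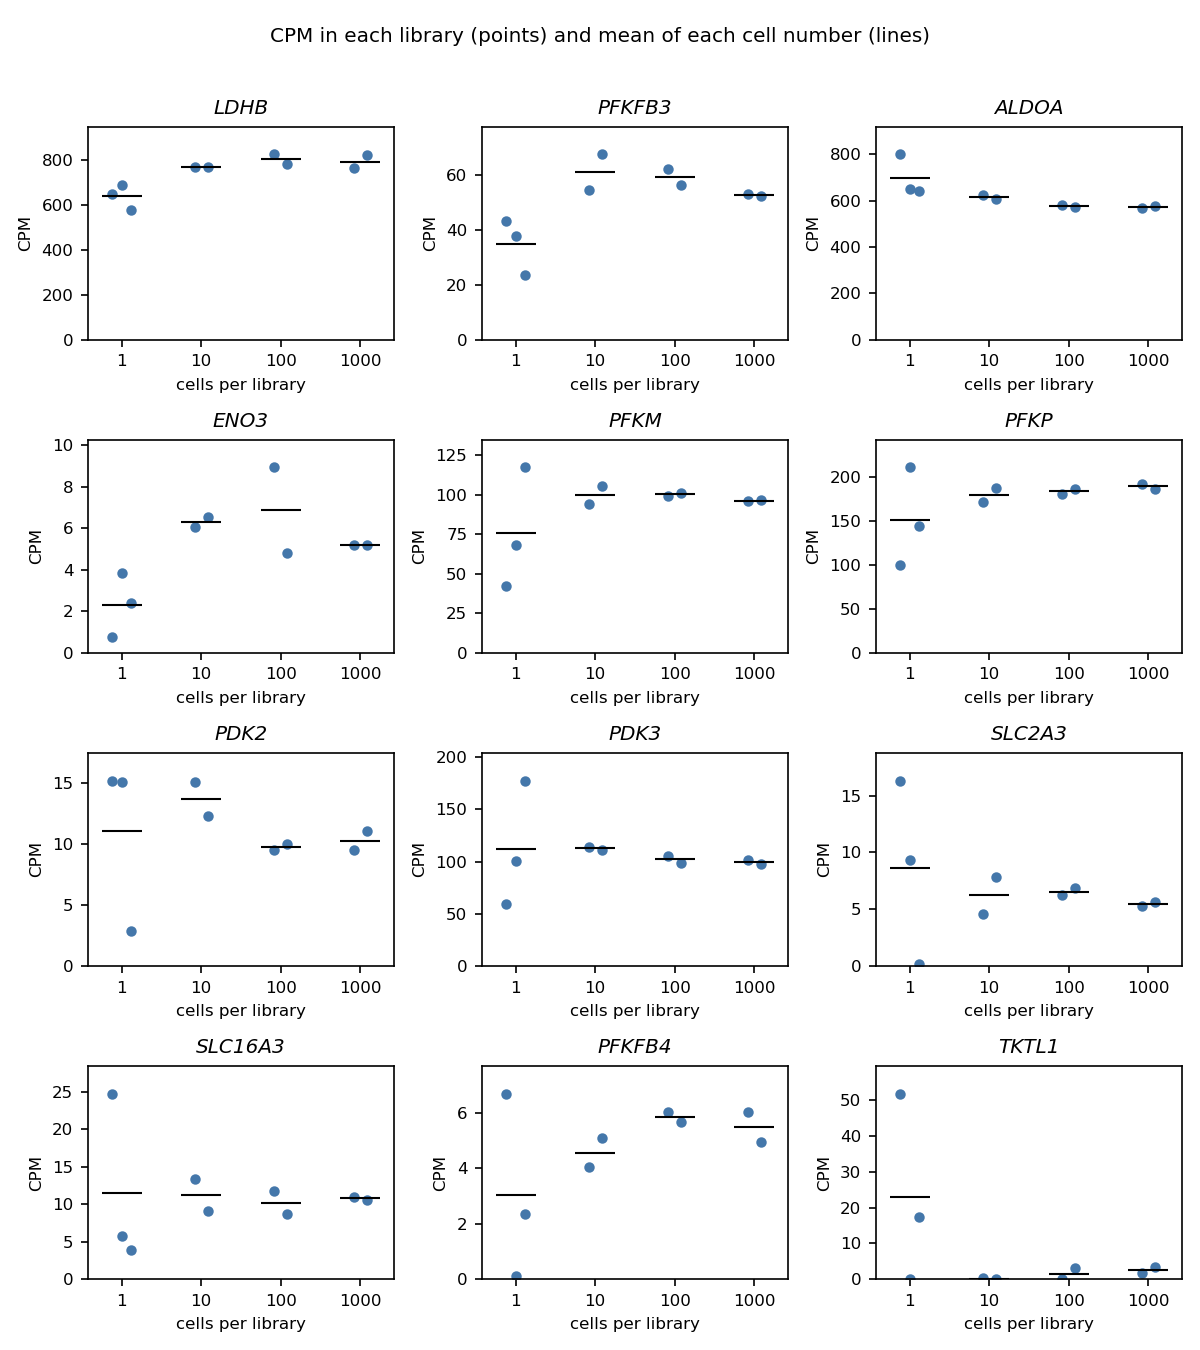
CPM (vertical axes, each starting at 0) of 12 genes in every library (points) by number of cells (horizontal axes), with the mean of each cell number as a line. The 3 single-cell points of LDHB, PFKFB3 and ENO3 lie below all others and those of ALDOA above, while those of PFKM, PDK3, SLC2A3 and SLC16A3 lie on either side.

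For most of the genes drawn, the points by library show narrow groups at 10, 100 and 1000 cells beside wide ones at 1 cell. An exception is ENO3, at 8.92 and 4.82 CPM in the 100-cell libraries and 0.753 to 3.82 CPM in the single cells. The kinases PDK1, PDK2 and PDK3 shut pyruvate dehydrogenase off and thereby keep pyruvate out of the mitochondrial cycle. PDK3 had 59.6, 100.3 and 178 CPM in the single cells, against 98.1 to 114 CPM with a median of 104 CPM. PDK1 was at 14.8, 27.4 and 6.70 CPM, against 11.5 to 19.1 CPM with a median of 16.1 CPM. PDK2 was at 15.2, 15.2 and 2.91 CPM, against 9.52 to 15.1 CPM with a median of 10.5 CPM. In Rep 3 PDK3 was thus above and PDK1 and PDK2 below every library of more cells.

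In the pentose phosphate pathway, PGLS and PGD serve the oxidative branch, and RPIA, RPE, TKT and TALDO1 the sugar exchanges of the other branch. PGD had 208, 154 and 161 CPM in the single cells, against 168 to 187 CPM in the others, and TKT, transketolase, had 556, 526 and 477 CPM, against 481 to 528 CPM. TALDO1, transaldolase, was at 107, 128 and 177 CPM, against 157 to 183 CPM with a median of 170.2 CPM, with Rep 1 and Rep 2 below the other libraries. RPE, ribulose phosphate epimerase, which has 6 pseudogenes, was at 57.9, 91.4 and 38.2 CPM, against 76.5 to 91.6 CPM with a median of 89.8 CPM, with Rep 1 and Rep 3 below the others. RPIA, ribose phosphate isomerase, was at 9.70, 21.6 and 33.3 CPM, against 13.9 to 24.9 CPM, with Rep 1 below and Rep 3 above them. PGLS, the lactonase, was at 27.7, 16.3 and 18.8 CPM, against 12.5 to 18.4 CPM, with Rep 1 and Rep 3 above them. None of these 6 genes passed edgeR's test.

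TKTL1, a transketolase-like gene (chromosome X, 154295674 to 154330363), varied most of the 35. It had 2684, 1 and 904 counts in the 3 cells, which is 51.8, 0.0196 and 17.3 CPM. In the other libraries it was at 0.184 and 0.142 CPM at 10 cells, 0 and 3.0 CPM at 100 cells and 1.64 and 3.32 CPM at 1000 cells. The level was thus above every other library in Rep 1 and Rep 3 and within their range in Rep 2. The 0 of 100 Cell Rep 1 allows up to 3 counts, or 0.0581 CPM, by counting error alone. The ratio of the highest to the lowest cell was 2644 (95% counting interval 474 to 104455). Its log2 fold change of 4.06 did not pass edgeR's test (standard error 1.47, adjusted p = 0.112), and without Rep 1, Rep 2 or Rep 3 it was 2.64, 4.64 and 4.22 (adjusted p = 0.289, 0.0241 and 0.0942). In a library of many cells, few cells with much TKTL1 RNA and many cells with little cannot be told apart.
The starts of TKTL1 (chrX:154295545-154295844, plus strand) and of TKT (chr3:53255973-53256272, minus strand) are shown because TKTL1 had the widest spread of the set and TKT, its relative, a narrow spread, and they were read in the same way.
TKTL1: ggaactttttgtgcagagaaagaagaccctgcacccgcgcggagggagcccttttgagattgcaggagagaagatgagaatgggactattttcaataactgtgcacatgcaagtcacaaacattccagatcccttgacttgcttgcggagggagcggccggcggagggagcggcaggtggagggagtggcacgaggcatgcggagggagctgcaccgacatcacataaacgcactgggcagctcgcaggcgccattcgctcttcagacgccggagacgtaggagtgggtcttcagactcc
TKT: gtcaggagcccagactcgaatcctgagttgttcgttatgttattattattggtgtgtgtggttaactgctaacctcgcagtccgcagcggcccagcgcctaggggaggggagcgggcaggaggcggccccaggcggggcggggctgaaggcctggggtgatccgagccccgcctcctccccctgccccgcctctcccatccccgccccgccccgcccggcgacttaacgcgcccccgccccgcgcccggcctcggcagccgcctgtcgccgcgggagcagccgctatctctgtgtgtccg
Neither window holds ACGTG, and they have 18 and 31 CG dinucleotides. A second TKTL1 start (chrX:154304920-154305219, not printed) has no ACGTG and 8 CG dinucleotides. Over the set, 62 promoters of 32 genes were in the RefSeq table, which has none for PFKFB2, SLC16A1 and SLC2A3. ACGTG was in 21 of the 62 (33.9%), against 21.4% of all 35116 promoters of 300 bases. By gene, 17 of 32 (53.1%) had a match in any promoter, against 24.9% of all genes, and genes with more promoters have more chances of one. The median number of CG dinucleotides was 26.5 in the promoters of the set and 14 in all promoters, so the windows also differ in base composition.

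**Figure D3:**
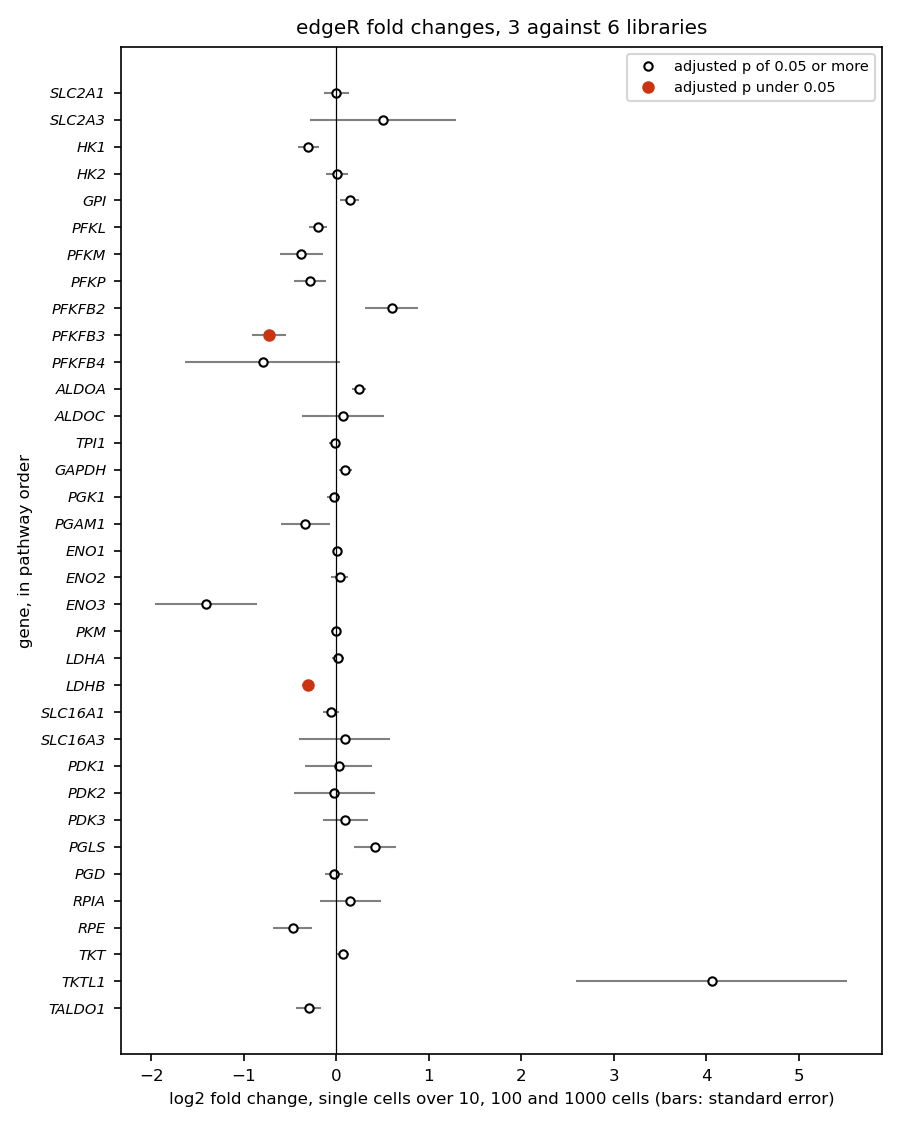
Log2 fold change of each gene (horizontal axis) in single cells over the 10-, 100- and 1000-cell libraries from edgeR, with its standard error as a bar, in pathway order (vertical axis). The filled points, LDHB at -0.31 and PFKFB3 at -0.73, had an adjusted p under 0.05, and TKTL1 at 4.06 has the widest bar.

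The plot of fold changes has the genes of lower glycolysis close to 0 apart from PGAM1 and ENO3. Summed by step, lower glycolysis was at 2999, 3257 and 2855 RPKM in the single cells, against 2863 to 3142 RPKM in the other libraries, upper glycolysis at 449, 428 and 458 RPKM against 421 to 449.98 RPKM, and the pentose phosphate pathway at 415, 388 and 414 RPKM against 409 to 424 RPKM. Lactate handling was at 705, 729 and 692 RPKM, against 776 to 833 RPKM, with all single cells below. The control of phosphofructokinase was at 11.7, 9.58 and 7.41 RPKM, against 13.1 to 16.2 RPKM, again with all single cells below. The largest part of the lactate sum was LDHB itself, at 403, 429 and 360 RPKM, against 476 to 514 RPKM. PFKFB3 was that of the other sum, at 8.89, 7.76 and 4.86 RPKM, against 10.8 to 13.9 RPKM. The remaining genes of both steps overlapped, so these sums are no separate result. Glucose uptake and the control of pyruvate dehydrogenase overlapped.

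The choice of isozyme was compared as the share of each gene in the counts per kilobase of its step, within each library. By counts per kilobase, the same gene led in all 9 libraries in each of 10 families, namely SLC2A1, HK1, PFKP, PFKFB3, ALDOA, ENO1, LDHB, SLC16A1, PDK3 and TKT. For HK1 and LDHB this depended on the length scaling. In plain counts HK2 exceeded HK1 in Single Cell Rep 1 (7265 against 6931), Single Cell Rep 3 (7984 against 5015) and 100 Cell Rep 2 (6935 against 6932). LDHA exceeded LDHB in Single Cell Rep 3 (37651 against 30071). In the remaining libraries HK1 and LDHB led in plain counts as well. A family holds genes of the set alone, so further glucose transporters and isozymes outside the set are left out of the shares. Leading shares over the 9 libraries averaged 55.8% for PFKP, 57.1% for PDK3, 62.6% for HK1 and 64.2% for LDHB, and 97.6% for ALDOA and 98.4% for TKT.

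LDHB made up 63.0%, 63.0% and 56.0% of the LDHA and LDHB level in the single cells, against 64.9% to 67.4% with a median of 65.7% in the other 6 libraries. The mean of the single cells differed from theirs by -5.30 points (exact two-sided permutation test, p = 0.0238, the smallest that 3 against 6 libraries allow, adjusted p = 0.310 over 13 shares), and without Rep 3 by -2.98 points. PFKFB3 made up 76.0%, 81.0% and 65.6% of its family, against 80.2% to 85.6% (exact permutation test, p = 0.0714, adjusted p = 0.464). None of the 13 shares passed after adjustment, and at these group sizes none could unless several shares reached the smallest p together.

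For 12 of the 13 shares the range was wider among the 3 single cells than among the 6 other libraries, with ENO2 as the exception. PDK3 made up 39.2%, 45.4% and 87.1% of the kinase family in the single cells, against 54.1% to 62.7% with a median of 56.1%. The 3 cells thus lay on both sides of the other libraries, with a mean share of 57.2% in single cells, against 57.0%. SLC2A3 made up 24.4%, 13.4% and 0.406% of the SLC2A1 and SLC2A3 level, against 7.65% to 14.2%. PFKFB4 made up 16.4%, 0.293% and 9.11% of its family, against 8.68% to 12.6%. PFKM made up 17.6%, 16.1% and 31.1% of the phosphofructokinases, against 22.2% to 24.6%, so that Rep 3 had the most PFKM and Rep 2, at 64.1%, the most PFKP. HK2 reached 49.0% of the hexokinases in Rep 3, against 32.0% to 37.7%, and TKTL1 9.04% of its family in Rep 1, against 0% to 0.706%.

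**Figure D4:**
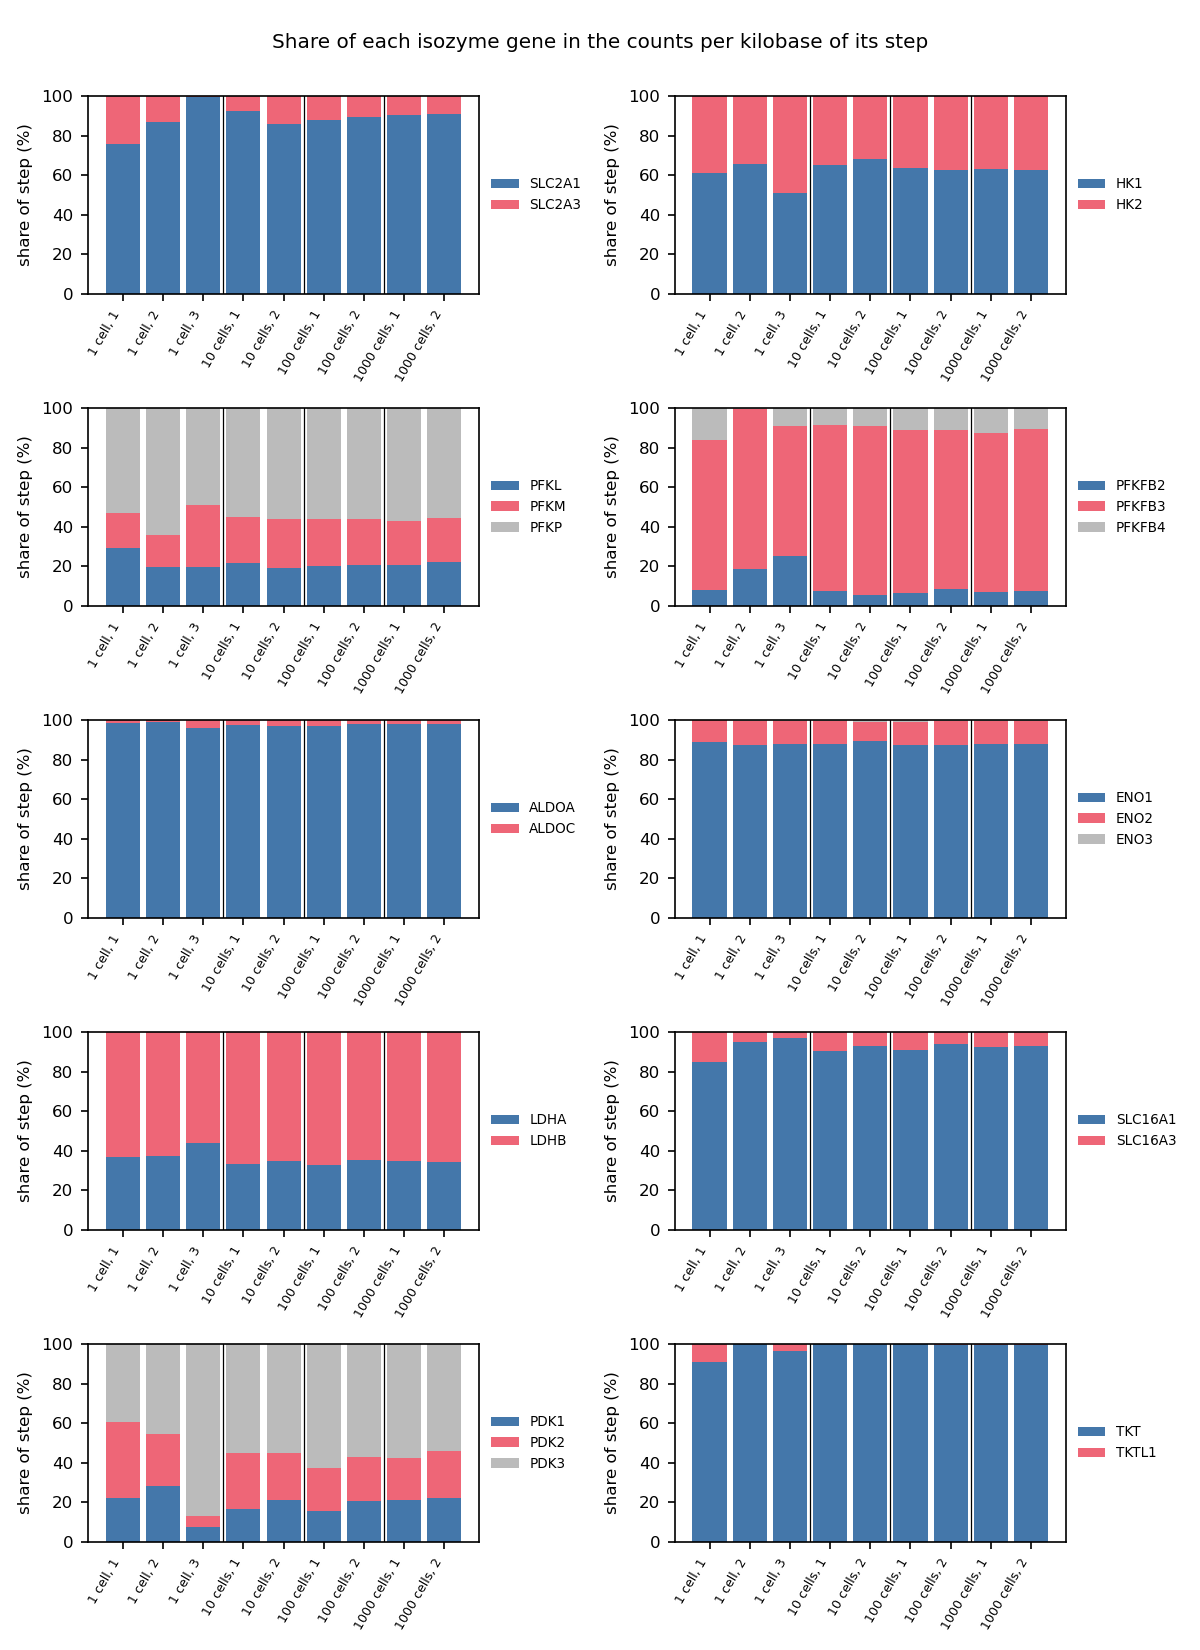
Share (vertical axes, percent) of each isozyme gene in the counts per kilobase of its step, in each library (horizontal axes, single cells at the left), with a panel for each of 10 families. Bars of 10, 100 and 1000 cells are nearly level, while PDK3 spans 39.2% to 87.1% and SLC2A3 0.406% to 24.4% among the single cells.

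The panels of isozyme shares are nearly level for the enolases and aldolases and vary among the single cells in the other families. The spread of the levels was described by the SD of log2 CPM with a prior count of 2. Its median over the 35 genes was 0.367 among the single cells and 0.0900 among the other 6 libraries, and over all genes 0.557 and 0.191. Without Single Cell Rep 3 the median among the single cells was 0.211. The SD was larger among the single cells for 32 of the 35 genes (91.4%, against 87.6% of all genes), with ENO1, ENO2 and PKM as the exceptions. These values describe 3 and 6 libraries and were not tested.

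The spread was larger at lower levels. The 3 genes at 1000 CPM or more, GAPDH, PKM and ENO1, had a median SD of 0.0661 among the single cells, against 0.115 for all genes of that level. The 16 genes at 100 to 1000 CPM had 0.206, against 0.230, the 11 at 10 to 100 CPM 0.629, against 0.479, and the 5 at 1 to 10 CPM 2.91, against 1.83. Within the group at 100 to 1000 CPM the SD reached 0.823 for PGAM1 and 0.788 for PDK3, and was as low as 0.0767 for TPI1. The ratio of highest to lowest cell was 6.34 for SLC16A3, 5.23 for PDK2, 5.08 for ENO3, 4.77 for ALDOC and 4.09 for PDK1, and 1.05 for ENO1.

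**Figure D5:**
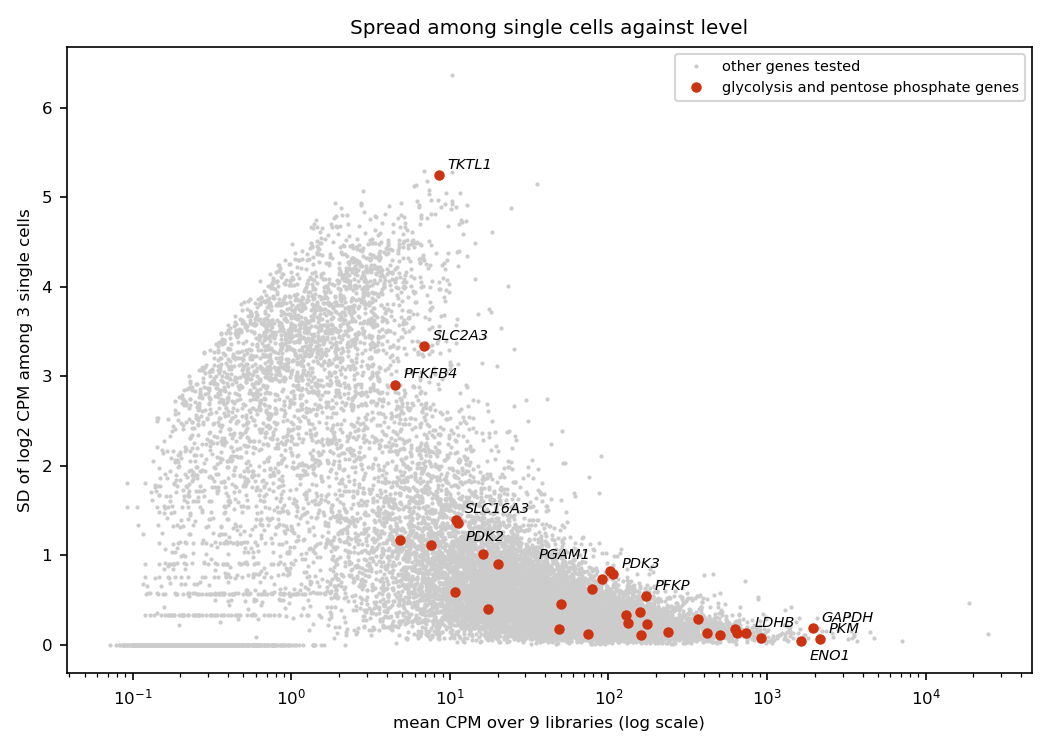
SD of log2 CPM among the 3 single cells (vertical axis) against mean CPM over the 9 libraries (horizontal axis, log scale) for the 35 genes (red) and all other genes tested (grey). The red points follow the grey cloud, with TKTL1 near its upper edge at its level, PGAM1 and PDK3 high for theirs, and ENO1 and PKM at the bottom.

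The plot of spread against level places the set inside the cloud of all genes. Single Cell Rep 1 lay outside the range of the other 6 libraries for 25 of the 35 genes (71.4%, against 70.7% of all genes), Rep 2 for 23 (65.7%, against 70.1%) and Rep 3 for 28 (80%, against 74.9%). The cells were not ordered alike across the set. Rep 3 was the highest and Rep 1 the lowest for 7 genes (PFKM, PFKFB2, ENO1, LDHA, PDK3, RPIA and TALDO1), and Rep 1 was the highest and Rep 3 the lowest for 7 others (SLC2A3, HK1, PFKFB3, ALDOA, SLC16A3, PDK2 and TKT).

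Between 10 and 1000 cells and between 100 and 1000 cells, no gene of the set passed edgeR's test, and neither did any in single cells against 1000 cells alone. In all 3 comparisons, which share the 1000-cell libraries, no gene at all passed (0% of 15449, 15597 and 15394 genes), while DESeq2 called 194 (1.26%), 1 (0.00641%) and 49 (0.318%) genes, none of them in the set. DESeq2 gave some genes of the set no adjusted p and so did not judge them. Among these were SLC2A3, ENO3 and TKTL1, at 10 cells and at 1 cell against 1000 cells, and PFKFB3 at 1 cell against 1000 cells. Its percentages are over all genes that edgeR tested. At an unadjusted p under 0.05 there were 5 of the 35 genes for 10 against 1000 cells (14.3%, against 11.2% of all genes), 0 for 100 against 1000 cells (against 2.01%) and 1 for single cells against 1000 cells (2.86%, against 7.91%), which was LDHB at 645, 686 and 576 CPM in the single cells, against 762 and 819 CPM at 1000 cells. For 10 against 1000 cells they were ALDOA, GAPDH, PDK3 and PKM, which were higher (11.4%, against 5.57%), and TKTL1, which was lower (2.86%, against 5.66%). ALDOA had 622 and 608 CPM at 10 cells and 569.9 and 577 CPM at 1000 cells, GAPDH 1939 and 1956 CPM against 1799 and 1872 CPM, PKM 2193 and 2256 CPM against 2029.98 and 2097 CPM, and PDK3 114 and 112 CPM against 102 and 98.1 CPM. The 2 groups did not overlap for 18 of the 35 genes at 10 against 1000 cells (51.4%, against 44.5% of all genes), for 11 at 100 against 1000 cells (31.4%, against 33.2%) and for 7 in single cells against 1000 cells (20%, against 28.7%). With 10 Cell Rep 1 or Rep 2 left out, 13 and 11 of the 35 genes passed, while 25.7% and 29.5% of all genes did. Without 100 Cell Rep 2, 16 of the 35 genes and 30.4% of all genes passed for 100 against 1000 cells. In these fits the library left alone in its group was taken to vary as the 1000-cell libraries do.

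Other genes of sugar metabolism were read from 6 lists in single cells against the 6 libraries, in which 2.22% of all genes were higher and 4.45% lower. Of 17 further glycolysis and pentose phosphate genes tested, none was higher and the only calls were PFKFB1, a further PFKFB gene, and RBKS, a ribokinase. They had 0 counts in all single cells and 0.444 ± 0.268 and 0.406 ± 0.331 CPM (SD, n = 6) in the other libraries. Counting error alone allows up to 0.0588 CPM at 0 counts in a single cell. Since both genes passed the filter on low counts through the libraries of more cells alone, their calls are no result. Of 9 glycogen genes, 1 was lower, the phosphorylase gene PYGL, at 113, 82.3 and 65.1 CPM in the single cells, against 129.6 ± 4.68 CPM (SD, n = 6) at more cells (edgeR, log2 fold change -0.58, adjusted p = 0.0369). Of 15 genes of branches from glycolysis, GPD1L, a glycerol phosphate dehydrogenase-like gene, and HAGH, which acts in methylglyoxal removal, were lower (edgeR, log2 fold changes -0.79 and -0.85, adjusted p = 0.0249 and 0.0376), and 12 of the 15 were below 0. Of 10 genes of mitochondrial pyruvate use, 1 was lower, PDP2, a phosphatase that counters the PDK kinases. It had 49.5, 40.8 and 31.9 CPM in the single cells, against 59.8 ± 4.54 CPM (SD, n = 6) at more cells (edgeR, log2 fold change -0.55, adjusted p = 0.0488). Of 12 genes of oxygen and glucose sensing and of 11 other sources and users of NADPH, none passed, with 4 of 12 and 10 of 11 below 0. The median log2 fold changes of the 6 lists, in the order given, were 0.05, 0.00, -0.18, -0.06, 0.20 and -0.19.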

How the data were processed

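RNA of 9 HAP1 libraries was sequenced by the authors. Per the labels and methods, reads were checked with FastQC 0.11.9, trimmed with Trim Galore 0.6.7, aligned to hg38 with HISAT2 2.2.1, sorted with SAMtools 1.16.1 and counted per gene with featureCounts of Subread 2.0.6, strand setting 2. The annotation release is not given in the sources used here. The deposited values are raw counts of reads, not read pairs, without molecular identifiers, and multi-mapping reads were not counted. Intervals and limits from counts therefore cover counting error only. The 42842970 to 61645865 counts per library set the counting error of low genes and no other part of their precision.

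Counts were analysed in R 4.3.3 with edgeR 4.0.16 (TMM, filterByExpr, quasi-likelihood test, Benjamini-Hochberg over all genes tested, threshold 0.05) and DESeq2 1.42.0, and scripts were tested on simulated data. CPM and RPKM use TMM library sizes and the exon lengths of the deposited tables. For GPI the 4474 bases on chromosome 19 were used instead of 5565, which include an alternate contig. No gene of the set overlaps another model on its strand, and pseudogenes were counted from GENCODE 29. Promoters are from RefSeq on GRCh38.p14. Isozyme shares were compared in exact permutation tests, and intervals of count ratios are exact binomial (Clopper-Pearson).

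The genes, lists and tests were chosen with earlier results of these data known. Fold changes are given for genes that passed in any comparison and for the 6 of largest absolute fold change, and genes of other lists only where they passed. Alternatives covered scaling, tool, filter, depth, joint fit, replicate number and each library.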

Additional observations from a re-analysis of the deposited data

Results flagged for a closer look

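In 10 Cell Rep 2, 3 genes of the set stood apart from the other 5 libraries of 10, 100 and 1000 cells by Dixon's test. HK1 was at 164 CPM there and at 132 to 143 CPM in the others, GPI at 391 CPM and 342 to 359 CPM, and TKT at 528 CPM and 481 to 498 CPM. Chance alone flags about 1 in 20 groups of values, and 35 genes were examined.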

How the results depend on the processing

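For single cells against the other libraries, 0 genes of the set were higher and 2 lower. DESeq2 gave 1 higher and 3 lower (16.6% of all genes called in either direction), and one fit of all 9 libraries 0 lower (0% of all genes). With the replicate block it was 1 higher and 4 lower (13.3% of all genes called). Single Cell Rep 3 is the only library with its number, so the block in effect sets it aside. LDHB and PFKFB3 had log2 fold changes of -0.24 and -0.51 both with the block and without that cell. Same-numbered libraries deviated together by a correlation of -0.0447 to 0.0511. That check shows no pairing by number but cannot exclude a shared sort or plate. Leaving out 1 library gave 0 to 3 higher and 0 to 6 lower (0% to 19.8% of all genes called), and leaving out both 10-cell libraries, chosen after seeing the data, gave 0 lower (0%). For 10 against 1000 cells, leaving out 1 library gave 0 to 9 higher and 0 to 5 lower (0.08% to 29.5% of all genes called), and no filter gave 1 lower, TKTL1 (0.621%). For 100 against 1000 cells, leaving out 1 library gave 0 to 8 higher and 0 to 8 lower (0.0184% to 30.4%), the highest counts being those without 100 Cell Rep 2. The block called no gene of the set in these comparisons or in single cells against 1000 cells. SLC2A3 turned to a log2 fold change of -0.36 without Single Cell Rep 1 and to 1.07, past the threshold, without Rep 3. Differences in share turned with no length scaling for SLC16A3 (0.0621 points), PDK1 (0.972) and PDK3 (-2.23), and against 100 and 1000 cells only for ENO2 (-0.0817), SLC16A3 (0.258) and PDK3 (-0.724). Leaving out 1 library, the difference ran over 0 for SLC2A3 (-3.58 to 8.43 points), PFKP (-4.89 to 2.57), PFKM (-6.48 to 0.997), PFKFB4 (-5.88 to 2.15), ALDOC (-1.17 to 0.439), ENO2 (-0.0482 to 0.610), SLC16A3 (-3.78 to 2.27), PDK1 (-4.89 to 5.41) and PDK3 (-14.7 to 9.24). Apart from the block, the cause of these changes was not tested. TMM against DESeq2 size factors, the filters and thinning to the smallest total left the calls at LDHB and PFKFB3. Low counts limit TKTL1, SLC2A3 and PFKFB4, which had 1, 10 and 5 counts in their lowest single cell.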
